A study of Mus musculus with 8 samples.

Results

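The cells described here are the tumour-infiltrating OT-I T cells with the strongest expression of a short interferon signature, called interferon-high cells below. For each cell, the unique molecular identifiers (UMIs, each counting 1 captured transcript) of *Isg15*, *Ifit1*, *Ifit3*, *Usp18*, *Rtp4* and *Rsad2* were summed and divided by all gene UMIs of the cell, and the top 1% of cells of each library were taken. The cells were thus chosen by their measured level of these 6 genes, and the rule gave 233 of 23337 cells. Cells were eligible if exactly 1 guide RNA was called in them and mitochondrially encoded genes made up at most 10% of their gene UMIs.

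Interferons are secreted cytokines that cells release on sensing viral or self nucleic acids, while interferon gamma is released by activated T and NK cells. Type I interferons bind IFNAR1 and IFNAR2, and interferon gamma binds its own receptor pair. Receptor-bound JAK kinases then phosphorylate STAT factors, and a complex that holds STAT2 and IRF9 binds the interferon-stimulated response element (ISRE) in front of many antiviral genes, while STAT dimers bind gamma-activated sites (GAS). In tumours, a minority of CD8 T cells with this programme is commonly seen beside effector, exhausted and cycling cells.

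The study combined a pooled CRISPR screen with single-cell RNA sequencing (CROP-seq), in which the guide of each cell is read together with its transcripts. Mouse OT-I T cells, CD8 T cells whose receptor recognises a peptide of chicken ovalbumin, came from OT-I:Rosa26-Cas9 animals, received a lentiviral library with guides against 83 metabolic genes or nontargeting guides and the surface tag CD90.1, and were transferred into Rosa26-Cas9 mice with orthotopic KPC_OVA tumours, a pancreatic cancer line made to express ovalbumin. Mice were given an antibody that blocks the inhibitory receptor PD-1 (anti-PD-1, 3 libraries) or control IgG (1 library), and CD90.1+ cells were sorted from the primary tumour 7 days after transfer. All cells analysed thus carried Cas9 and a guide, in both treatments. Several animals were used in each treatment. Neither how many were pooled in a library nor whether the 3 anti-PD-1 libraries came from separate animals was given in the sources used here. The p-values thus refer to libraries and not to animals, and the spread between libraries may be technical.

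After filtering, the anti-PD-1 libraries held 2552, 2616 and 6530 cells and the IgG library 11639 cells, at a median of 16745, 16224, 11969 and 6298 gene UMIs per cell. The rule took 26, 26, 65 and 116 of them. Pairs of libraries shared between 30 and 93 barcodes, 3 to 20 of them among the kept cells and 0 among interferon-high cells. The last cell inside the rule and the first outside it lay close together, at 573 and 518 counts per 1000000 gene UMIs (CPM) of the signature in anti-PD-1 replicate 1, 450 and 442 in replicate 2, 824 and 816 in replicate 3, and 550.0 and 546 in the IgG library. The rule thus cuts a continuous score.

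Interferon-high cells were shallower than the rest. Their median depth was 11875 against 16815 gene UMIs in anti-PD-1 replicate 1, 12603 against 16275 in replicate 2, 9773 against 11991 in replicate 3 and 4468 against 6319 in the IgG library. Dividing by a cell's total gives 1 signature UMI more weight in a shallow cell, and a member held between 1 and 77 signature UMIs. When cells were first thinned to 2000 UMIs, which left out 361 shallower cells, 26, 26, 64 and 107 of the interferon-high cells could still be drawn in anti-PD-1 replicates 1, 2 and 3 and IgG, and 146 cells in all were chosen again. By a signature without *Isg15*, 168 of the 233 were chosen again. Values from cells of matched depth, limited in each library to the range between the lower and upper quartile of the interferon-high cells, are given beside many of the results below. They rest on 12, 12, 33 and 58 interferon-high cells, so a call lost there does not by itself show that a difference depended on depth.

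The 6 genes that defined the cells encode a ubiquitin-like modifier (*Isg15*), RNA-binding proteins that block viral translation (*Ifit1* and *Ifit3*), the protease that removes ISG15 from proteins (*Usp18*), a receptor transport protein (*Rtp4*) and viperin, an enzyme that makes a chain-terminating nucleotide (*Rsad2*). In the mm10 build they lie at chr4:156199424-156200818 (*Isg15*), chr19:34640871-34650009 (*Ifit1*), chr19:34583531-34588731 (*Ifit3*), chr6:121245906-121270917 (*Usp18*), chr16:23520291-23614222 (*Rtp4*) and chr12:26442746-26456452 (*Rsad2*). As these genes chose the cells, their levels are given as a description only. *Isg15* stood at 654, 492, 733 and 589 CPM in the interferon-high cells of anti-PD-1 replicates 1 to 3 and of the IgG library, and at 7.59, 7.88, 15.1 and 6.78 in the other cells. *Rsad2*, the scarcest, stood at 49.2, 22, 92.0 and 59.4 against 0.0825, 0.167, 0.441 and 0.134. Few members showed the whole signature. UMIs of all 6 genes were found in 20 cells, of 5 in 29, of 4 in 51, of 3 in 63, of 2 in 49 and of 1 in 21. The IgG library held 31 of the 49 and 17 of the 21. A member held a median of 14.5, 11 and 14 signature UMIs in the anti-PD-1 libraries and 5 in the shallower IgG library.

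Sequence upstream of the start of 4 of these genes and of the 4 genes with the largest rises (at a mean log2 CPM above 3) among those with a match is shown, because the ISRE is the element through which type I interferons act. RefSeq promoter windows (GRCm38.p6, the same assembly as mm10, from 250 bases before to 50 after the start) held an entry for 4 of the 6 signature genes. Each line is 100 bases of the gene's strand, 5′ to 3′, all upstream of the start, with capitals marking the ISRE core letters, which were GAAA, any 2 bases and GAAA again, or the reverse complement of these.
Isg15, chr4:156200827-156200926, minus strand: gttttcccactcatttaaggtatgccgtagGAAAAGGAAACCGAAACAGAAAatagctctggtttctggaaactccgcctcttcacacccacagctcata
Ifit1, chr19:34640755-34640854, plus strand: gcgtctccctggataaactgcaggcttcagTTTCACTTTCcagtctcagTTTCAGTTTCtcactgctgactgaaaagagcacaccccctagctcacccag
Ifit3, chr19:34583343-34583442, plus strand: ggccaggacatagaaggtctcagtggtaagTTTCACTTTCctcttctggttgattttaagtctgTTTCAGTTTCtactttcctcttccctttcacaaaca
Rsad2, chr12:26456503-26456602, minus strand: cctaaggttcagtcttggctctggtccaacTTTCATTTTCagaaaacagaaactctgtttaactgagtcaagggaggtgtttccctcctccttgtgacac
Ifi213, chr1:173599276-173599375, minus strand: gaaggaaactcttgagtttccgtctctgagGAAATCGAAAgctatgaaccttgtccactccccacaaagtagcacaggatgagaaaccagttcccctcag
Ifi206, chr1:173491319-173491418, minus strand: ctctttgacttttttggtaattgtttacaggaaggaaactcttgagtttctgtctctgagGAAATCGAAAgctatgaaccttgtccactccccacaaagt
Trim30a, chr7:104465194-104465293, minus strand: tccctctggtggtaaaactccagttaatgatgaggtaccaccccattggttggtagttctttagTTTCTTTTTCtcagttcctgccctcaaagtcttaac
Ifi214, chr1:173535967-173536066, minus strand: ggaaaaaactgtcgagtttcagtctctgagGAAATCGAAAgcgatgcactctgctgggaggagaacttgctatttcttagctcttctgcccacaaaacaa

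The *Isg15* stretch held 3 overlapping matches between 78 and 56 bases before the start, and *Ifit1* and *Ifit3* held 2 each. The 3 Ifi200 genes on chromosome 1 shared the same match letters. Over the promoter table, 3.99% of 27025 genes held the ISRE core letters on either strand in any of their windows and 9.55% held the GAS letters TTCNNNGAA, with 0.614% holding both. Among genes called higher in interferon-high cells (below), 391 of 481 had an entry, and 19.4% of these held the ISRE core. The share was 32.5% of the 154 matched genes that rose by more than 1 on the log2 scale and 48.4% of the 64 that rose by more than 2. Of the 383 matched genes called lower, 3.13% held it. The GAS letters were found in 13.0% of the genes called higher and 3.92% of those called lower. These are counts of letters in a window and not of bound sites.

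The first question was whether the 6 genes marked a wider interferon response or only themselves. A list of 28 interferon-stimulated genes outside the signature was summed, of which 27 were matched in the files. Their summed level was 3410 CPM in interferon-high cells against 673 in the other cells of anti-PD-1 replicate 1, 3285 against 682 in replicate 2, 6008 against 1208 in replicate 3 and 4981 against 1057 in the IgG library. All 4 libraries were higher in interferon-high cells, and the log2 ratio was 2.29 ± 0.05 (SD, n = 4), or 4.89-fold. The two-sided exact permutation test over paired libraries gave p = 0.12, the smallest that 4 pairs allow. In cells of matched depth the log2 ratio was 2.0 ± 0.14 (SD, n = 4).

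**Figure D1:**
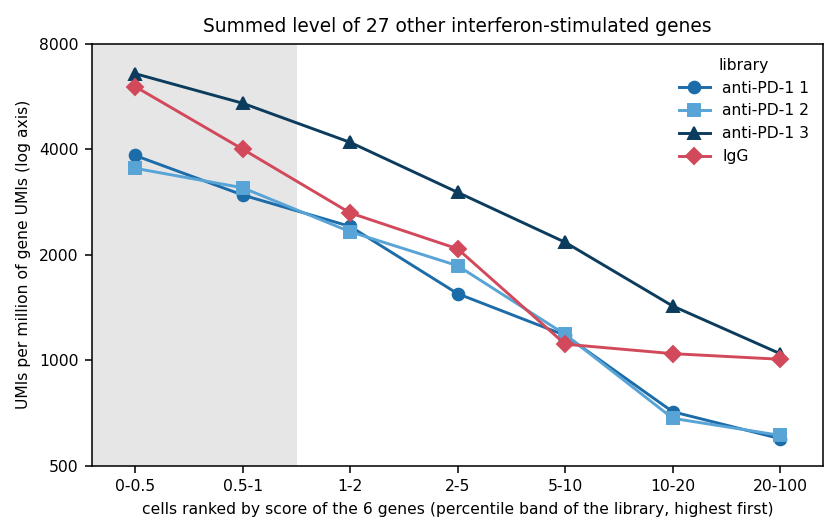
Summed CPM (log axis) of 27 other interferon-stimulated genes against the percentile band of the signature score, highest band first, with 1 line per library. The grey area marks the top 1%, where the level ran from 2964 to 6579, and the level fell from band to band down to 598 to 1045 in the lowest.

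The plot of levels by score band shows that the other interferon-stimulated genes followed the signature in steps and had no jump at the 1% limit. In anti-PD-1 replicate 3 the level was 6579 in the top 0.5% of cells, 5416 in the next 0.5%, 4189 between 1% and 2%, 3016 between 2% and 5%, 2172 between 5% and 10% and 1045 in the lowest 80%. Bands share a library and differ in depth, so this gradient is a description. Single cells varied widely around it. In the IgG library the list ranged from 541 to 21495 CPM over interferon-high cells with a median of 4705, against a median of 890 in the other cells. Of the 233 interferon-high cells, 229 lay above the median of the other cells of their library and 225 above the upper quartile. Cells with UMIs of only 1 or 2 signature genes were also high, at 2951, 3719, 7987 and 4255 in the 4 libraries, against 3491, 3131, 5842 and 5294 for cells with 3 or more. The former values rest on 6, 8, 8 and 48 cells and the latter on 20, 18, 57 and 68.

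Across all genes outside the signature, the UMIs of interferon-high and of other cells were summed in each library and compared with edgeR's quasi-likelihood test with the library as a block. Of 11577 genes tested, 481 (4.15%) were higher and 460 (3.97%) were lower in interferon-high cells at an adjusted p under 0.05. With size factors from DESeq2's median-of-ratios method in place of TMM, 586 were higher and 305 lower, so the number of falls depended on the scaling. DESeq2 itself called 415 (3.58%) higher and 112 (0.967%) lower. A very small edgeR p-value did not mean a small spread of that gene between libraries. *Xcl1*, at 836, 1791, 1266 and 1349 CPM in interferon-high cells (anti-PD-1 replicates 1 to 3, then IgG) against 2163, 2782, 1550 and 2091, had an edgeR adjusted p of 8.0e-38. Its DESeq2 adjusted p was 0.091. In cells of matched depth, where 9553 genes were tested, edgeR called 196 higher and 49 lower. Counts of called members of gene lists below stand against these shares of all genes. The median log2 fold change over all genes tested was -0.07.

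The genes that rose furthest, counting only those whose mean log2 CPM exceeded 3, were interferon-stimulated genes from several families. *Ifi213*, an Ifi200-family DNA-binding protein gene, stood at 93.1, 57.8, 166 and 124 CPM in interferon-high cells (anti-PD-1 replicates 1 to 3, then IgG) against 4.23, 4.53, 12.2 and 10.4, a log2 fold change of 3.81 ± 0.16 (SE, edgeR adjusted p = 1.6e-125). *Irf7*, the transcription factor that amplifies type I interferon responses, stood at 123, 143, 172 and 182 against 8.89, 9.61, 17.2 and 13.3 (3.66 ± 0.14, edgeR adjusted p = 1.9e-152). *Xaf1*, a pro-apoptotic interferon target, stood at 175, 204, 263 and 200 against 15.2, 16.1, 27.6 and 21.4 (3.39 ± 0.12). In these 3 genes every library of interferon-high cells lay far above every library of other cells. The same held for all 20 of the largest rises above that level, and for 3.88% of all genes tested. As these 20 were picked by size among called genes higher in every library, this follows nearly from the choice. They ranged from 5.20-fold to 14.0-fold, with edgeR adjusted p of at most 3.6e-22, and took in the GTPases *Gbp6*, *Irgm1* and *Igtp*, the nucleic acid sensors *Zbp1* and *Ddx58*, *Ifi206*, *Ifi214* and *Ifi209*, the TRIM gene *Trim30a*, the Schlafen genes *Slfn8* and *Slfn1*, and *Rnf213*, *Lgals3bp*, *Phf11b*, *Tor3a*, *Eif2ak2* and *Samhd1*.

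**Figure D2:**
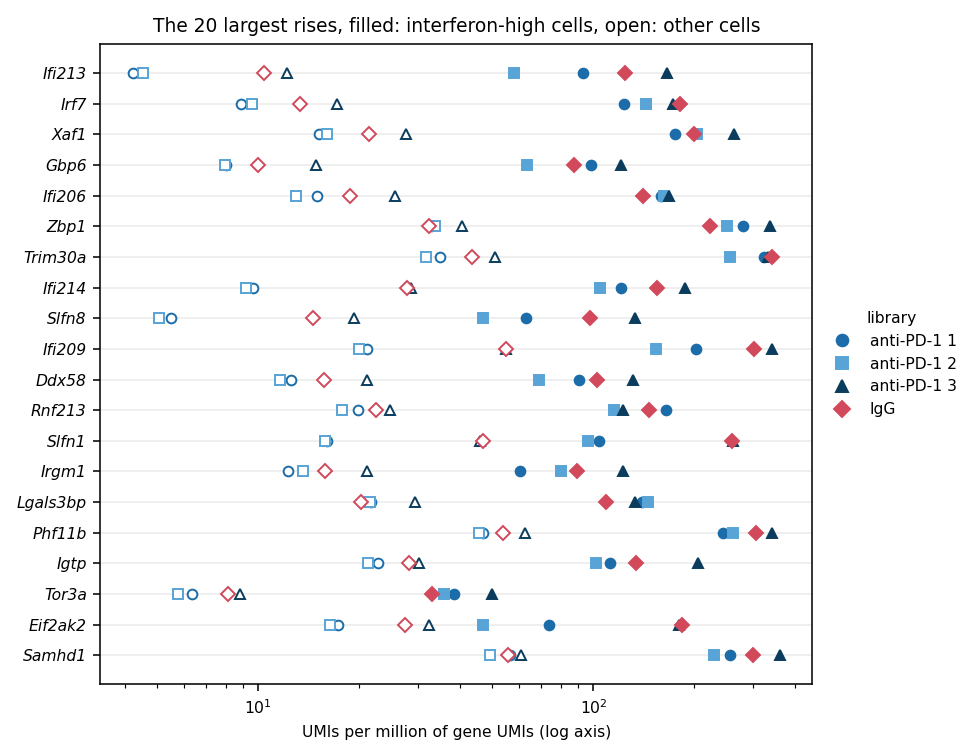
CPM (log axis) of the 20 genes with the largest rises at a mean log2 CPM above 3, filled symbols for interferon-high and open symbols for other cells, with the colour and shape giving the library. In every gene the 4 filled symbols lie to the right of the 4 open ones, as for Irf7 at 123 to 182 against 8.89 to 17.2.

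The type I and III ligands were almost silent at the transcript level. Of 9 type I and type III interferon genes in the list, 8 had 0 UMIs in all 23337 cells and together they had 1 UMI, in a cell outside the interferon-high group. *Ifng*, the interferon that activated CD8 T cells make, was abundant in both kinds of cell, at 526, 803, 311 and 447 CPM in interferon-high cells and 440, 628, 416 and 471 in the others. It was higher in 2 libraries and lower in 2, with a log2 fold change of 0.03 ± 0.07 (edgeR adjusted p = 0.91). The value depended on the cells taken, since it was 1.07 and called higher in cells of matched depth (edgeR adjusted p = 1.0e-22) and -0.31 and called lower with a signature without *Isg15* (edgeR adjusted p = 0.0029).

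Receptor and kinase transcripts moved little. Of 7 tested, 2 rose and none fell, with a median log2 fold change of 0.25. *Ifnar2*, a chain of the type I receptor, was at 43.8, 38.5, 69.5 and 82.6 against 32.2, 33.8, 41.2 and 45.2 CPM (0.66 ± 0.16, edgeR adjusted p = 0.00092), and *Jak1*, the kinase shared by both interferon classes, rose by 0.26 ± 0.08 (adjusted p = 0.013, and 0.47 in cells of matched depth). *Ifnar1* (0.25), *Ifngr1* (0.15), *Jak2* (0.31), *Tyk2* (0.10) and *Il10rb* (0.22) did not pass the test, and *Ifnar1*, *Ifngr1* and *Tyk2* were at -0.20, -0.0461 and -0.12 in cells of matched depth.

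The transcription factors below the receptors rose in graded fashion. Of 9 STAT and IRF genes tested, 7 rose and none fell, with a median of 0.83. *Stat2*, a part of the type I complex, was at 35.6, 22, 57.4 and 41.3 CPM against 6.56, 5.56, 9.46 and 9.54 (2.35 ± 0.23, edgeR adjusted p = 7.0e-23), and *Irf9*, the DNA-binding part of that complex, rose by 1.33 ± 0.18. *Irf1*, a primary target of interferon gamma, was at 115, 71.5, 106 and 85.9 against 58, 59.5, 56.8 and 43.6 (0.83 ± 0.13, adjusted p = 1.5e-08). *Irf2* (0.42) and *Irf8* (0.30, higher in 3 of 4 libraries) passed the test with smaller changes, but neither was called in cells of matched depth and DESeq2 did not call *Irf8* (adjusted p = 0.11). *Irf3*, which acts before interferon is made, and *Stat3*, which serves other cytokines, did not pass it, at 0.18 and 0.04.

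Among 8 negative regulators tested, 3 rose and none fell. *Socs1*, the suppressor that inhibits JAK kinases, was at 123, 77.0, 127 and 107 CPM in interferon-high cells against 30.4, 31.4, 36.7 and 39.4 in the others (1.65 ± 0.14, edgeR adjusted p = 2.0e-31), and the library levels did not overlap. *Socs3* (1.01) and *Cish* (0.51), suppressors of cytokine receptors, rose less. In cells of matched depth they were at 0.71 and 0.21 and were not called (edgeR adjusted p = 0.64 and 0.88).

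**Figure D3:**
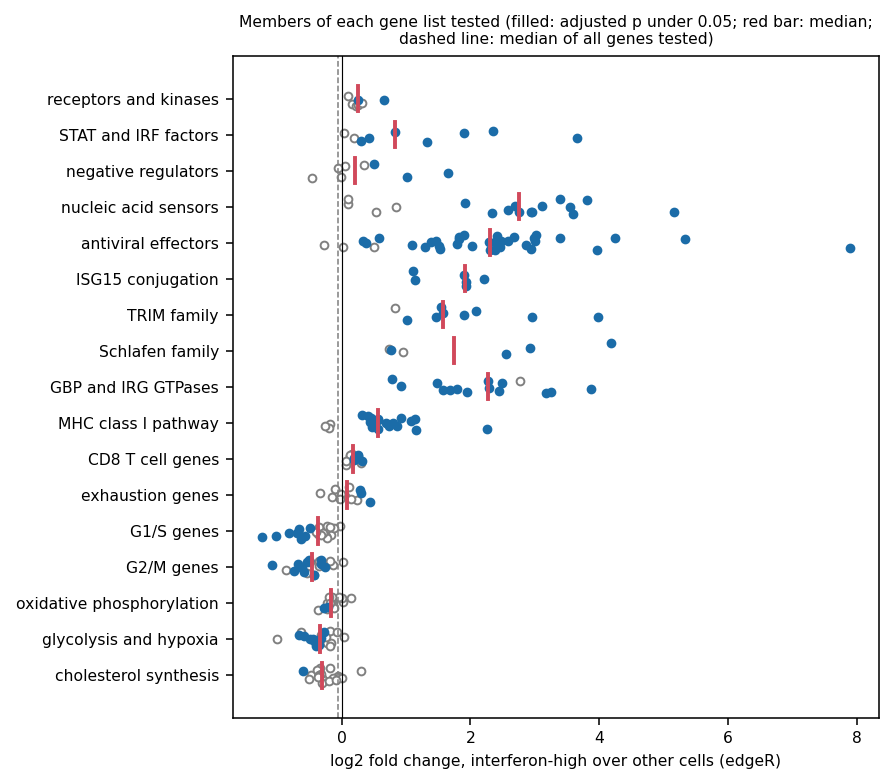
Log2 fold change of each tested member of 17 gene lists, interferon-high over other cells, filled where the edgeR adjusted p was under 0.05, with a red bar at the list's median and a dashed line at the median of all genes tested, -0.07. Lists of sensors, effectors and GTPases lie to the right, with medians from 2.27 to 2.75, and cell cycle and glycolysis lists lie slightly to the left, from -0.47 to -0.34.

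Genes that sense or bind foreign nucleic acid formed the list with the highest median. Of 17 tested, 13 rose and none fell, and the median log2 fold change was 2.75. Besides the RNA helicase *Ddx58* (RIG-I, 2.69) and the Z-nucleic acid sensor *Zbp1* (2.96), all 9 tested members of the Ifi200 family rose, from 1.91 to 5.17, and they lie next to each other at chr1:173468485-173942672. Reads could be split between members of this family, so single values in it are uncertain. The adaptor gene *Tmem173* (STING) did not pass the test.

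Antiviral effectors rose almost as a block, with 33 of 36 tested higher, none lower and a median of 2.30. *Bst2*, tetherin, which holds budding virus at the membrane, was at 362, 336, 411 and 390 CPM against 71.6, 79.6, 83.5 and 73.9 (2.29 ± 0.08). *Ifi27l2a* was the most abundant, at 827, 944, 2469 and 1859 against 212, 237, 548 and 480 (2.03 ± 0.06), and shows how the base level already differed between libraries. *Cmpk2*, a nucleotide kinase gene, was enriched in interferon-high cells, at 11.0, 19.3, 34.7 and 19.8 against 0.454, 0.313, 0.690 and 0.644. UMIs of it were found in 14.6% of interferon-high cells (exact 95% interval 10.3 to 19.8%) and in 0.628% of the others, or 34 and 145 cells. *Ifit3b*, the gene with the largest rise (7.89 ± 0.50), is a near copy of the signature gene *Ifit3*, so its reads may not be independent of the rule.

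Genes that act in ISG15 conjugation or are related to its enzymes rose. All 6 tested genes were called higher, with a median of 1.91, among them the E1 enzyme *Uba7* (1.92), the E2 enzyme *Ube2l6* (1.93, and 1.76 with an edgeR adjusted p of 0.12 in cells of matched depth) and the E3 ligases *Herc6* (2.20) and *Trim25* (1.90). *Usp25* (1.14), which encodes a deubiquitinating protease, and *Herc3* (1.11), which was lower in anti-PD-1 replicate 1 (13.7 against 14.5 CPM), rose less. *Herc6* stood at 95.9, 74.3, 95.2 and 101 CPM against 19.4, 16.5, 23.1 and 20.3.

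In several gene families and lists most of the tested members rose, and some of the risen members lie close together. Of 9 TRIM genes, 8 rose, led by *Trim30d* (3.98) and *Trim30a* (2.95), which lie with 3 other risen members at chr7:104244457-104507849. Of 6 Schlafen genes 4 rose, from *Slfn2* (0.77) to *Slfn5* (4.19), all at chr11:82951349-83122670. Of 15 guanylate-binding and immunity-related GTPases, which attack pathogen-containing vacuoles and are classical interferon gamma targets, 14 rose with a median of 2.27. The 7 tested nuclear body genes all rose, among them *Pml* (2.05) and *Sp100* (1.36), as did 6 of 7 PARP-family genes and partners, such as *Parp14* (2.02), *Parp9* (1.90) and its partner *Dtx3l* (1.82).

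The class I antigen presentation pathway rose by a smaller factor but from a high base. Of 22 genes tested, 19 were higher and none lower, with a median of 0.56, and 11 were called in cells of matched depth. *B2m*, the invariant chain, was at 2471, 2616, 2733 and 2194 CPM against 1765, 1817, 1886 and 1603 (0.50 ± 0.05, edgeR adjusted p = 5.0e-21). *Tap1*, a chain of the peptide transporter, was at 230, 168, 219 and 196 against 93.1, 88.9, 107 and 94.1 (1.08 ± 0.10), and *Tapbp*, which loads peptide, rose by 1.14. In each gene the levels of the 2 kinds of cell did not overlap.

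At the cell surface, *Ly6a*, the Sca-1 antigen of activated T cells, was at 827, 963, 1124 and 788 CPM against 310, 349, 340 and 240 (1.59 ± 0.06, edgeR adjusted p = 6.9e-137), and the tetraspan genes *Ms4a4b* (1.02) and *Ms4a6b* (0.96) rose too. Of 9 genes in this list 7 rose. *Ly6c2* was called (1.3) but was lower in interferon-high cells of anti-PD-1 replicate 1, at 38.4 against 72.8, and DESeq2 did not call it (adjusted p = 0.45).

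Of 12 chemokine and chemokine receptor genes tested, 4 rose and 2 fell. *Cxcl10*, the interferon-induced ligand of CXCR3, was at 79.4, 27.5, 28.7 and 49.5 CPM against 3.40, 4.43, 0.724 and 1.41 (4.45 ± 0.30, edgeR adjusted p = 8.8e-48). It came from few cells. UMIs were found in 22 of 233 interferon-high cells, and a single cell held 65.5% of the 29 UMIs in anti-PD-1 replicate 1. *Ccl5* rose (0.64, but 0.09 in cells of matched depth, where it was not called), while *Xcl1* (-0.71) and *Ccl3* (-0.83), chemokines of freshly activated CD8 T cells, fell. DESeq2 called neither fall (adjusted p = 0.091 and 0.33).

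The label of CD8 T cells was checked against markers. The 12 CD8 T cell genes summed to between 11223 and 12287 CPM in interferon-high cells and between 9653 and 10468 in the others, and 5 of 12 rose slightly, with a median of 0.18. Fibroblast and erythroid markers were at 0 UMIs in every library of interferon-high cells. They were also scarce in the other cells, at 0.243 to 16.1 and 0.0627 to 0.566 CPM, so the 0 tells little. In anti-PD-1 replicate 2, which had the 16.1, 1 cell held 97.1% of the fibroblast UMIs. The 16 myeloid markers summed to between 10.9 and 57.3 CPM against 27.7 to 49.95, the 10 B and plasma cell markers to between 41.0 and 102 against 57.3 to 253, the 9 tumour epithelial markers to between 10.9 and 31.7 against 11.6 to 34.0, and the 9 acinar markers to between 0 and 28.7 against 5.73 to 8.27. Both of the latter lists were higher in interferon-high cells of anti-PD-1 replicate 3, at 31.7 against 11.6 and 28.7 against 8.27, where 1 cell held 57.1% and 73.7% of their 21 and 19 UMIs. Of the plasmacytoid dendritic cell list 2 genes were called higher, *Bst2* and, with the limits given above, *Irf8*, while 4 or 5 of its 8 genes were at 0. The list summed to 644, 795, 699 and 674 CPM against 360.3, 355, 339 and 314, higher in 4 of 4 libraries, and *Bst2* alone was at 362, 336, 411 and 390 against 71.6, 79.6, 83.5 and 73.9. The 8 NK cell markers summed to between 280.4 and 523 against 291 to 399 and were higher in 3 of 4 libraries, with 1 of 6 tested genes called higher. The 5 markers of CD4 and regulatory T cells summed to 889, 519.5, 349.9 and 289 against 545, 500.02, 304 and 299, also higher in 3 of 4, with 1 of 3 tested called higher. The part of these cell types in the results was not tested. When every cell with at least 10 UMIs of the markers of non-lymphoid or B cells, of which 4 were interferon-high, was left out and the top 1% drawn again, 475 genes were higher and 457 lower, and 457 of the 481 and 415 of the 460 genes above were among them.

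Markers of T cell differentiation changed in a mixed way. Of 12 exhaustion genes 3 were called higher, with a median of 0.08, and none were called by DESeq2. *Pdcd1*, which encodes PD-1, was at 271, 322, 343 and 274 CPM against 273, 271, 340 and 283 (0.04 ± 0.08, and -0.0702 in cells of matched depth), and the ranges overlapped. *Tcf7*, the transcription factor of precursor and memory cells, was at 21.9, 57.8, 30.2 and 39.6 against 13.9, 12.2, 12.2 and 23.8 (1.22 ± 0.21, edgeR adjusted p = 7.7e-07), higher in 4 of 4 libraries though the 2 ranges overlapped. Its UMIs were found in 15.0% of interferon-high cells (exact 95% interval 10.7 to 20.3%) and 9.45% of the others. These shares pool 4 libraries of unlike depth and are a description. *Tcf7* had 73 UMIs in 35 interferon-high cells, and 1 cell held 47.6% of the 21 UMIs in anti-PD-1 replicate 2. It was called in 16 of the 20 fits run. *Cd69*, an activation marker that interferon also induces, was at 438, 344, 215 and 173 against 207, 204, 90.7 and 95.2 (0.99 ± 0.09), while *Tnfrsf9*, the activation-induced receptor 4-1BB, fell from 534, 559, 576 and 449 to 419, 316, 403 and 266 (-0.60 ± 0.07). All 3 genes kept their call in cells of matched depth. Of the 12 precursor genes 2 rose and 1 fell, of 11 memory genes 5 rose and 1 fell, and of 12 antigen-response genes 4 rose and 1 fell. Over all genes tested 4.15% rose and 3.97% fell. The summed precursor list was lower in every library (log2 ratios -1.23, -0.56, -0.21 and -0.49). *Xcl1* made up 2163 of its 2329 CPM in the other cells of anti-PD-1 replicate 1. The summed memory list was higher in every library (0.69, 0.36, 0.26 and 0.41), and the antigen-response list gave 0.29, 0.18, 0.09 and -0.07.

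**Figure D4:**
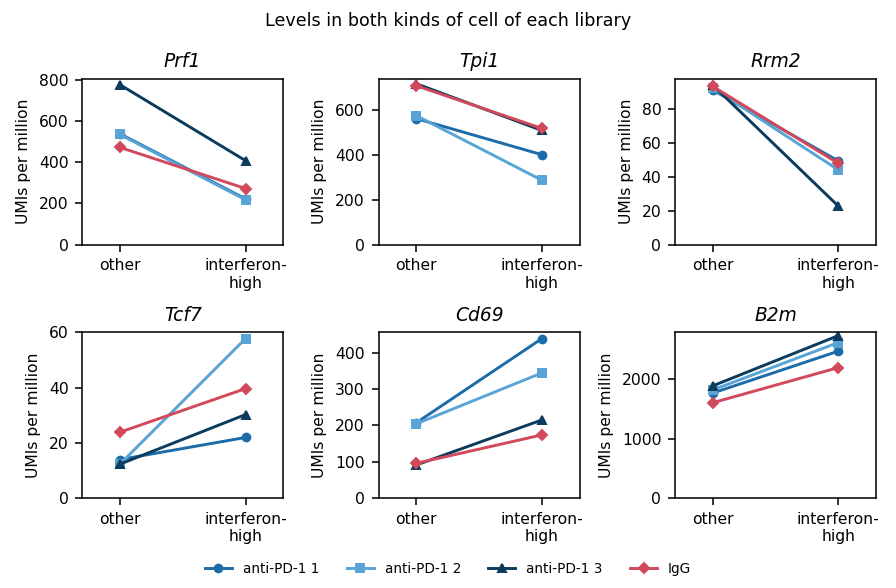
CPM of 6 genes in the other cells (left) and the interferon-high cells (right) of each library, with 1 line per library and axes from 0. Prf1, Tpi1 and Rrm2 fall and Tcf7, Cd69 and B2m rise in all 4 libraries, Prf1 from 472 to 777 down to 217 to 408.

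Genes of the effector list, which holds cytotoxic molecules, cytokines and chemokines, were called in both directions. Of 15 tested, 5 rose and 6 fell, and in cells of matched depth 2 rose and 6 fell. The summed level of the list was higher in interferon-high cells of every library, with log2 ratios of 0.02, 0.55, 0.20 and 0.11. UMIs of *Gzmb*, granzyme B, were found in 73.8% of interferon-high cells and 75.2% of the others, pooled over libraries. *Prf1*, perforin, was at 222, 217, 408 and 272 CPM in interferon-high cells against 539, 535, 777 and 472 (-1.03 ± 0.07, edgeR adjusted p = 7.8e-42), a fall in 4 of 4 libraries without overlap, against 9.13% of genes whose levels lay below without overlap. It was called under every alternative, and in cells of matched depth the log2 fold change was -1.20. *Gzma* (0.35) was called higher but reversed to -0.54 in cells of matched depth, and DESeq2 did not call it.

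The granzyme cluster genes *Gzmc*, *Gzmd*, *Gzme*, *Gzmf* and *Gzmg* gave large falls by UMIs, yet these values rest on few cells. *Gzmd* had 0 UMIs in the 233 interferon-high cells. *Gzme* and *Gzmg* also had 0. No fold is given for these genes, since *Gzmd* UMIs were found in 1.66% of the other cells, and 1 cell held between 17.0% and 28.2% of them in each library. At that share 3.87 interferon-high cells would be expected to hold one, and 0 of 233 cells allows a share of cells with a UMI of up to 1.29% (3 counts). For *Gzme* and *Gzmg* the expected numbers were 2.88 and 1.15 cells, so that a difference in the share of cells was not detectable at this number. *Gzmf* UMIs were found in 3.86% of interferon-high cells and 3.76% of the others. *Gzmc* UMIs were found in 4.29% of interferon-high cells and 8.98% of the others. These shares pool the cells of 4 libraries and interferon-high cells were shallower, so they are given as a description.

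The other large falls were likewise sparse. *Gldc*, a glycine-cleaving enzyme gene, *Slc37a2*, *Slc17a6* and *Zswim7* had between 3 and 7 UMIs over all interferon-high cells, and DESeq2 called none of them. *Igkc*, an immunoglobulin chain, was called lower (-4.45), but 97.2% of its UMIs in the other cells of anti-PD-1 replicate 3 came from 1 cell, and without cells rich in other types' markers no B cell gene was called.

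Cell cycle genes were lower as lists. Of 20 G1/S genes 8 fell and none rose, with a median of -0.36, and of 20 G2/M genes 11 fell and none rose, with a median of -0.47. Over all genes tested 3.97% fell. *Rrm2*, the ribonucleotide reductase subunit of S phase, was at 49.3, 44.0, 22.7 and 47.9 CPM against 91.2, 92.3, 94.1 and 93.3 (-1.24 ± 0.15, edgeR adjusted p = 6.6e-14). *Birc5*, survivin, was at 121, 135, 96.7 and 142 against 169, 181, 166 and 181 (-0.51 ± 0.10). In cells of matched depth the medians were -0.28 and -0.43 while 0 and 1 genes were called, and DESeq2 called 3 in each list. The part of depth in these falls was not tested further.

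Of 20 glycolysis and hypoxia genes 10 fell and none rose, with a median of -0.34, and 4 were called in cells of matched depth. *Tpi1*, triose phosphate isomerase, was at 400, 286, 508 and 517 CPM against 561, 574, 716 and 707 (-0.58 ± 0.07, edgeR adjusted p = 1.4e-15), and *Ldha*, which makes lactate, fell by 0.40 on the log2 scale (adjusted p = 0.10 in cells of matched depth). Of 20 oxidative phosphorylation genes 2 fell, of 13 mitochondrially encoded genes 1 fell, and of 20 cholesterol synthesis genes 1 fell, against 3.97% of all genes tested. The summed level of the oxidative phosphorylation genes was slightly lower in 4 of 4 libraries, with log2 ratios from -0.14 to -0.08. The median log2 fold change of all genes tested was itself -0.07. Of the 20 genes 11 were lower in every library, but the share of all genes that were so is not given here. Of 8 genes of NAD, kynurenine and polyamine metabolism 1 rose and none fell, with a median of 0.02. The risen gene was *Nampt*, the rate-limiting enzyme of NAD salvage, which was named after its values were seen, at 71.2, 27.5, 57.4 and 51.2 against 25, 23.3, 24.2 and 22.6 (1.14 ± 0.18, adjusted p = 3.2e-08).

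Of 18 genes of cell death and survival 6 rose and none fell, while 4.15% of all genes tested rose and 3.97% fell. Among the risen were *Casp4*, a sensor of bacterial lipopolysaccharide (0.99), *Casp8* (0.80) and the death ligand *Tnfsf10* (TRAIL, 0.88), which was higher in 3 of 4 libraries. *Bcl2l11*, which encodes the pro-apoptotic protein BIM, rose by 0.50 but was not called in cells of matched depth. Of 13 genes induced by tissue dissociation, *Junb* (0.46) and *Fosb* (0.54, in 3 of 4 libraries) were called higher, against 4.15% of all genes tested. *Hsp90aa1* was called lower (-0.42), as was *Hspa1a*, which had 3 UMIs in interferon-high cells, against 3.97% of all genes tested. The list's median was 0.16. DESeq2 did not call *Fosb* (adjusted p = 0.055), and none of the 4 was called in cells of matched depth.

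Since the rule takes the same share of each library, treatments were set side by side with a common limit, at least 4 signature UMIs of 2000 drawn from each cell that had as many. Cells with fewer were left out, 289 in the IgG library and 8, 5 and 59 under anti-PD-1. This used the signature genes and is a description. The share of cells was 0.197% (exact 95% interval 0.0638 to 0.458%), 0.153% (0.0418 to 0.392%) and 0.402% (0.263 to 0.588%) in the anti-PD-1 libraries and 0.211% (0.136 to 0.314%) in the IgG library, and the IgG value lay within the range of the anti-PD-1 libraries. The mean difference was 0.0391 percentage points, and it turned negative (-0.0366) without anti-PD-1 replicate 3. With a limit of 1 signature UMI of 2000, the shares were 3.73%, 3.72% and 6.01% under anti-PD-1 and 3.23% in the IgG library, which then lay below all 3, so the order depended on the limit. Intervals cover counting error only. The level of the 27 other genes divided the libraries in another way, with anti-PD-1 replicates 1 and 2 at 673 and 682 and anti-PD-1 replicate 3 and IgG at 1208 and 1057 in the cells outside the signature's top 1%.

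A further comparison asked whether the profile differed between treatments. A test of whether the difference between interferon-high and other cells depended on treatment, with the single IgG library assumed to vary like the others, called in edgeR 2 genes higher (0.0173%) and 2 lower (0.0173%) of 11577, *Gpr183* and *Ccl5* higher and *Ccl3* and *Gzmf* lower under anti-PD-1. In all, 342 genes passed at an unadjusted p under 0.05, and no gene was called by DESeq2, without the library block or without anti-PD-1 replicate 3, so a difference between treatments is not established for any gene. In the IgG library the 27 genes rose by 2.24 on the log2 scale, and in the anti-PD-1 libraries by 2.34, 2.27 and 2.31.

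Interferon-high cells were spread over the guides. Besides nontargeting guides, they carried guides against 75 of the 83 targets, in all 150 of 276 guides, with at most 7 cells for 1 guide. Of 2730 cells with nontargeting guides 22 were interferon-high, or 0.806% (exact 95% interval 0.506 to 1.22%). Among the 69 targets with at least 200 cells the share had a median of 0.957%. It was highest for *Mgst1* (7 of 295 cells, 2.37%, interval 0.959 to 4.83%), *Mgat4d* (6 of 264 cells, 2.27%) and *B3gnt4* (6 of 269 cells, 2.23%), and it was 0 for 5 targets, *Adcy10* (of 284 cells), *Man1a2* (273), *Cyp4a30b* (254), *G6pc* (250 cells) and *Cyp2j13* (224), the last pair named after their values were seen. The interval of *Mgst1* overlapped that of the nontargeting cells. Members were chosen within libraries and a target's cells come from 4 libraries, so these shares are a description.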

How the data were processed

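The authors deposited raw UMI counts per gene and cell barcode, made with Cell Ranger 3.1.0 against mm10, and guide calls made by the same program; the annotation release was not given in the sources used here. The members and the gene lists were chosen with earlier results of these data known. Cells with 1 called guide and at most 10% mitochondrial UMIs were kept; cells with several guides were left out as likely doublets, and no doublet caller was run. Cells are not replicates, so counts were summed per library over interferon-high and over other cells (8 sums) and tested with edgeR 4.0.16 (R 4.3.3; filterByExpr, TMM, quasi-likelihood, library as block, Benjamini-Hochberg adjusted p under 0.05). The library is the pairing, as both sums came from the same library. The 6 signature genes were not tested. DESeq2 1.42.0 was an alternative, and the other alternatives changed the share of cells taken, depth, filters, scaling and libraries. The matched-depth, library-pair, 1-UMI-limit and at-least-3-gene alternatives were chosen after seeing the data. The library pairs were anti-PD-1 replicates 1 and 2, whose titles share a number, and the remaining libraries. No label names a batch. The paper states that the CROP-seq came from independent experiments and that a batch effect was removed, without saying which library belonged to which. Levels are CPM, standard errors are of log2 fold changes, shares have exact Clopper-Pearson 95% intervals that cover counting error only, and the limit for a count of 0 was 3 counts. The kept cells of a library held between 48227839 and 89064644 gene UMIs. The genes named in the text were members of the lists, the 20 largest rises and the largest falls among genes past the threshold with a mean log2 CPM of at least 3, and genes called in the treatment interaction; *Pdcd1*, *Tnfsf10*, *Cxcl10*, *Prf1*, *Ifng*, *Tcf7*, *Socs3*, *Cmpk2*, *Nampt* and *Ifit3b* were also or only named after their values were seen. Of the list entries, 8 were not matched and not analysed here. Genes with near-identical copies (Ifi200, Ifit3b, Trim30, Gbp, Phf11 and Oas genes) can share reads. The test was run first on simulated counts without differences between libraries and without cells that dominate a gene, so that run does not cover such cases. scipy 1.17.1 gave exact tests. Results for some genes are not reported here.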

Additional observations from a re-analysis of the deposited data

Results flagged for a closer look

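An edgeR interaction (anti-PD-1 minus IgG, log2 scale) called 4 genes whose difference between interferon-high and other cells may vary with treatment, with the spread of the 1 IgG library only assumed to be like that of the others. *Ccl3* gave -0.75 ± 0.15 (edgeR adjusted p = 0.0062), with ratios of -1.94, -0.21 and -1.17 in the anti-PD-1 libraries against -0.29 in the IgG library, so that replicate 2 lay on the IgG side. *Gzmf* gave -3.17 ± 0.66 (adjusted p = 0.0070) and rests on 0, 0, 5 and 17 UMIs in interferon-high cells. *Gpr183*, an oxysterol receptor gene, gave 2.53 ± 0.53 (adjusted p = 0.0070). It was at 137, 85.3 and 51.4 CPM in interferon-high cells of the anti-PD-1 libraries against 53.7, 47.7 and 28.2 in the others, and at 9.91 against 28.1 in the IgG library, where it rests on 6 UMIs. *Ccl5* gave 0.53 ± 0.12 (adjusted p = 0.017), with ratios of 0.76, 0.94 and 0.64 against 0.23. DESeq2 called none of the 4 (adjusted p = 1.0 each), and edgeR called 0 genes without the library block or without anti-PD-1 replicate 3.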

How the results depend on the processing

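The rise of the 27 other interferon-stimulated genes kept its direction in 4 of 4 libraries under every alternative run with 4 libraries, from 1.95 (score of thinned cells) to 2.54 (without its 3 genes with most UMIs). The counts of called genes moved more. Against 481 higher and 460 lower, the fit without the replicate block called 215 higher and 43 lower. DESeq2 gave 112 lower, RLE scaling 305 lower (65.8% of calls higher against 51.1%), cells of matched depth 196 and 49, at least 5 guide UMIs 216 and 188, the top 2% of cells 739 and 918, the top 0.5% 284 lower, cells with at least 3 signature genes 251 lower, anti-PD-1 replicates 1 and 2 alone 147 and 33, and anti-PD-1 replicate 3 with IgG 293 and 174. Leaving out 1 library gave 332 to 446 higher and 217 to 403 lower, with 217 lower without anti-PD-1 replicate 3 and 278 lower without IgG. The cause was not tested.

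Of the treatment interaction, 2 higher and 2 lower, DESeq2 and the fit without the replicate block each called 0 and 0, at least 5 guide UMIs and thinned scores 1 and 1, the top 0.5% 5 and 5, the top 2% 0 and 4, and no filter on low counts 1 higher. Leaving out 1 library gave 0 to 2 higher and 0 to 2 lower, and leaving out IgG allowed no fit. The treatment difference in cells above a common score turned to -0.0366 without anti-PD-1 replicate 3, -0.0207 at 6 UMIs and -0.00352 without thinning; it was 0.0877 without replicate 2, and 1.25 at a limit of 1 UMI of 2000, which was chosen after seeing the data.

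Among named genes, matched depth turned *Gzma* to -0.54, *Igkc* to 0.0018, *Pdcd1* to -0.0702, *Tyk2* to -0.12, *Ifngr1* to -0.0461 and *Ifnar1* to -0.20, while *Ifng*, 0.03 in all cells, was 1.07 there and called. *Ifng* was also -0.23 in anti-PD-1 replicate 3 with IgG, -0.10 at 5 guide UMIs, -0.31 without *Isg15* in the score (called, edgeR adjusted p = 0.0029), -0.18 with thinned scores, -0.0222 in the top 2%, and from -0.0860 (without anti-PD-1 replicate 2) to 0.16 with 1 library left out. *Pdcd1* was -0.00264 in anti-PD-1 replicate 3 with IgG, -0.0121 with at least 3 signature genes and from -0.00817 (without replicate 2) to 0.0835 with 1 library left out. *Irf3* was -0.16 in anti-PD-1 replicates 1 and 2 alone, -0.34 at 5 guide UMIs, -0.00730 with at least 3 signature genes, -0.22 in the top 0.5% and from -0.0148 (without replicate 3) to 0.30 with 1 library left out. *Tyk2* was -0.52 at 5 guide UMIs, -0.11 in the top 0.5% and from -0.00359 (without replicate 3) to 0.24 with 1 library left out, and *Jak2* was -0.16 in anti-PD-1 replicates 1 and 2 alone. With 233 interferon-high cells, values of sparse genes rest on few UMIs.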
